A study of Rattus norvegicus with 12 samples.

Results

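Genes of nuclear transport were examined in rat testis at embryonic day 16, in animals descended from females dosed with the fungicide vinclozolin or with its vehicle. The members were the probe sets whose single annotated symbol is a numbered Nup (nucleoporin), Ipo (importin), Xpo (exportin), Tnpo (transportin), Kpna (importin alpha) or Kpnb (importin beta), together with Cse1l and Ran. There were 44 such genes among 14217 genes with a single annotated symbol, measured by 68 of 31042 probe sets. Nup62cl, a gene whose symbol carries letters after the number, was kept under this rule, and 1 probe set that names Kpna2 together with another gene was left out. Of the 68 probe sets, 63 were bright enough to be tested, and they covered all 44 genes.

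Proteins and RNAs pass between nucleus and cytoplasm through nuclear pores, which are built from scaffold nucleoporins around a channel filled by nucleoporins rich in phenylalanine-glycine (FG) repeats. Receptors of the importin beta family carry cargo through that channel, some of them with an importin alpha as adaptor, and the small GTPase Ran loads and unloads them on either side of the envelope. In the fetal testis, as in other growing tissues, this machinery moves transcription factors in and RNAs out, and members of the importin family change in abundance as germ cells mature.

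Founder females received vinclozolin at 100 mg/kg/day by intraperitoneal injection on days 8 to 14 of pregnancy, or sesame oil with DMSO as vehicle over the same days. Testes were taken at E16 from their male embryos (F1) and from embryos of the next generations (F2 and F3), so that 6 groups resulted, the control and the vinclozolin lineage of each generation, with 2 arrays each. Each RNA was a pool of about 10 testes of one treatment. Only the founders were dosed, and the protocol text of the F2 and F3 vinclozolin samples describes the mated animals as coming from control lines, so the group names in the sample titles were followed here. Nothing in the labels ties the pools to separate litters, and every p-value below therefore measures the spread between RNA pools, which may be partly technical. Signals came from the whole testis, where fewer cells of a type and less RNA per cell cannot be told apart.

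The start regions of 3 member genes are shown because their probe sets carried large changes: Ipo5 and Xpo5, each with a probe set lower in the vinclozolin lineage, and Tnpo3, with both probe sets higher. Each runs 5′ to 3′ on the gene's strand from 250 bases before to 50 bases after the start annotated by RefSeq in build GRCr8, and capitals mark matches to the 5 motifs given after them. Ipo5 lies at chr15:104411998-104412297 on the plus strand, Xpo5 at chr9:22275696-22275995 on the minus strand, and Tnpo3 at chr4:59185586-59185885 on the minus strand.
Ipo5: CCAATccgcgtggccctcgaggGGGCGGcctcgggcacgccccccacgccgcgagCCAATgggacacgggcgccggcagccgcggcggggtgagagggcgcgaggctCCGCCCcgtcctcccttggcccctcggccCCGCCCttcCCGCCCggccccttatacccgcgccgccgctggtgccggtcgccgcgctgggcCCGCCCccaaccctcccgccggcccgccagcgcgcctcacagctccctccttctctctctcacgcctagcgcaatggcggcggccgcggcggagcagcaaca
Xpo5: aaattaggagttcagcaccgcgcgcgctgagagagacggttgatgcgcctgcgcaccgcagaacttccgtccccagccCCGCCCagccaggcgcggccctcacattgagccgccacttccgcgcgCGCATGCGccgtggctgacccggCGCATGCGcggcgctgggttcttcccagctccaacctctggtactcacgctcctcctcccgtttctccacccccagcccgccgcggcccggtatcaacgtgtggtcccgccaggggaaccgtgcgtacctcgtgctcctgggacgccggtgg
Tnpo3: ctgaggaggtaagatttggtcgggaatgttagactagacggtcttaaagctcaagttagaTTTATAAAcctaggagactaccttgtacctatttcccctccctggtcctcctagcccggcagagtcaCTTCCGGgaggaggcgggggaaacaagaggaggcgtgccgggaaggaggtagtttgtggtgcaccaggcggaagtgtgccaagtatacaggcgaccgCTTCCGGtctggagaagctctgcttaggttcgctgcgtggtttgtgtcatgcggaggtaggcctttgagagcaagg
Of the 44 genes, 39 had an entry in the promoter table, with 41 start regions in all. Kpnb1, Xpo7, Kpna1, Kpna3 and Nup107 had none. The motifs were searched on both strands. CCAAT, the core bound by the factor NF-Y, was found in 46.3% of the 41 regions and in 37.5% of all 33469 regions listed. GGGCGG, the core of a GC box, was found in 63.4% against 33.1%. CCGGAAG, the core of an ETS site, was found in 14.6% against 8.75%, and CGCATGC, part of the core of an NRF1 site, in 9.76% against 3.33%. TATAAA was found in 4.88% against 14.2%. The median GC content was 63.3% in the members' regions and 51.7% in all. The Ipo5 region held 2 CCAAT and 5 GGGCGG matches, the Xpo5 region 1 GGGCGG match and 4 CGCATGC matches that overlap in pairs, and the Tnpo3 region 2 CCGGAAG matches and 2 TATAAA matches that overlap each other. These shares describe letters in the windows, and no binding was measured.

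Markers of Sertoli cells and fetal Leydig cells were present on every array, as the tissue label states. The summed signal of 8 fetal Leydig markers was 11946 to 12641.7 on the control arrays and 13087.8 to 15282.1 on the vinclozolin arrays, and that of 7 erythroid markers was 6186 to 7068.1 and 7959 to 11089.5, so that both sums were higher in the vinclozolin lineage without overlap. Not every marker rose. Among the Leydig markers Star, Lhcgr and Nr5a1 had changes of -0.23, -0.41 and -0.05 in F1 and of 0.25, -0.09 and -0.01 in the mean of the generations. The erythroid marker Slc4a1 had -0.37 in F1 and -0.11 in the mean. The other markers of both lists were above 0 in F1 and in the mean. The sum of the 3 germ cell markers on the array was 304.9 to 364.9 in controls, 126.5 to 228.1 in F1 vinclozolin, 219.7 to 255.3 in F2 vinclozolin and 324.2 to 328.5 in F3 vinclozolin. Within that sum Sox2 and Kit were lower in F1, at -0.95 and -1.86, and in the mean of the generations, at -0.46 and -1.08 (limma adjusted p = 0.0124 and 6.94e-05), while Nanos3, at 29.1 to 55.2 over all arrays, had values of 0.14 and 0.21 (adjusted p = 0.105 in the mean). The sum of 2 prostate secretion genes was 1.2 to 14.5 in controls, 24.2 to 29.4 in F1 vinclozolin, 35.6 to 44.4 in F2 vinclozolin and 447.1 to 536.2 in F3 vinclozolin. The part of these cell markers in the changes below was not tested. The 5′ to 3′ signal ratios of control transcripts were also read. The signal of the 5′ probe set of beta-actin divided by that of its 3′ probe set was 0.423 to 0.471 in the 6 control pools, 0.192 and 0.149 in F1 vinclozolin, 0.246 and 0.219 in F2 vinclozolin, and 0.395 and 0.36 in F3 vinclozolin. The lineages did not overlap in the beta-actin ratio, so lineage and that ratio cannot be told apart on these arrays. The same ratio for Gapdh was 0.959 to 1.02 in controls, 0.718 and 0.651 in F1 vinclozolin and 0.8 and 0.721 in F2 vinclozolin, below all controls, but 1.02 and 0.97 in F3 vinclozolin, which overlapped the controls. With the beta-actin ratio as a covariate no member was called in any contrast, and across all 21729 tested probe sets none was called in F1, in F2 or in the mean of the generations. In F3 the same fit called 247 of all probe sets (1.14%). Because that fit kept the 6 group means, its slope rests only on ratio differences between the 2 arrays of a group. It therefore cannot tell the ratio and lineage apart.

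On the deposited scale, transport genes that differed were mostly lower in the vinclozolin lineage, a split that centring each array on its median turned in the mean of the generations (values below). A probe set was called where limma's Benjamini-Hochberg adjusted p over all 21729 tested probe sets was under 0.05, and every change below is a difference of log2(signal + 16), vinclozolin minus control. In F1, 18 of the 63 member probe sets fell (28.6%, in 15 genes), where 13.7% of all tested probe sets fell, and 4 rose (6.35%, in 3 genes), where 9.41% of all rose. A fit of the 4 F1 arrays alone called 8 of the 63 members and 2294 of all 21729 probe sets, shares that lay near each other. In F2, 7 fell (11.1%, against 9.65% of all) and 3 rose (4.76%, against 4.7%), so the F2 shares lay near those of all probe sets. In F3 none was called in either direction, where 2.06% of all fell and 1.05% rose. By the same limma fit, 11 members had an unadjusted p under 0.05 in F3, 4 of them higher and 7 lower. These 11 were 17.5% of the members, where 18.3% of all had such a p. A fit of the 4 F3 arrays alone called 6 members (9.52%, against 10.4% of all), and a fit with array weights called 8 (12.7%, against 12.5%). Leaving out F1 vinclozolin 1 also gave 8 calls in F3 (12.7%, against 10% of all), as did leaving out F1 vinclozolin 2 (9.99% of all). Leaving out either F2 vinclozolin pool gave 1 (1.59%, against 3.25% and 3.28%). Members were thus called in F3 by some fits, at shares near those of all probe sets.

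In the mean of the 3 generation differences, 22 member probe sets fell (34.9%, in 18 genes) and 5 rose (7.94%, in 4 genes), where 19.2% of all tested probe sets fell and 14.1% rose. The median change of the 63 was -0.09 in F1 and -0.02 in the mean, and that of all tested probe sets was -0.01 in both. Centring each array on its median moved the median of all probe sets in the mean contrast from -0.01 to 0.09 and turned the split of called members from 5 higher and 22 lower to 16 higher and 10 lower. Over all 21729 tested probe sets the same centring turned 3072 higher and 4173 lower to 5559 higher and 2787 lower, so the whole array turned with the members. For the members in F1 it turned 4 higher and 18 lower to 8 higher and 12 lower, and in F2 3 higher and 7 lower to 5 higher and 5 lower. The calls over all probe sets went from 5026 to 5908 in F1 and from 3118 to 4103 in F2. Under that centring 6 of the 22 F1 calls were lost, at Nup98 1368747_at, Kpna1 1372183_at, Ipo4, Nup160, Nup214 1390074_at and Xpo7 1397312_at. In F2 it ended 2 of 10, at Nup153 and Nup155. In the mean it ended 12 of 27, at Tnpo2, Kpnb1 1372550_at, Ipo9, Ipo5 1373955_at, Ipo8 1380490_at, Ipo4, Nup160, Nup58 1388073_a_at, Kpna4, Nup214 1390074_at, Xpo7 1397312_at and Nup155. The direction and the calls of small changes thus depended on the scaling, while quantile normalization and cyclic loess gave 6 higher and 22 lower, and 5 higher and 23 lower, in the mean. Over all probe sets quantile normalization gave 3675 higher and 3597 lower, and cyclic loess 3205 higher and 3858 lower. The 6 vinclozolin arrays all lay below the 6 control arrays for 7 members (11.1%, against 7.73% of all) and all above for 1 (1.59%, against 5.52%). Among the control groups of the 3 generations limma's F test called 0 members and 0 probe sets in all, with 1 member and 517 probe sets at an unadjusted p under 0.05.

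**Figure D1:**
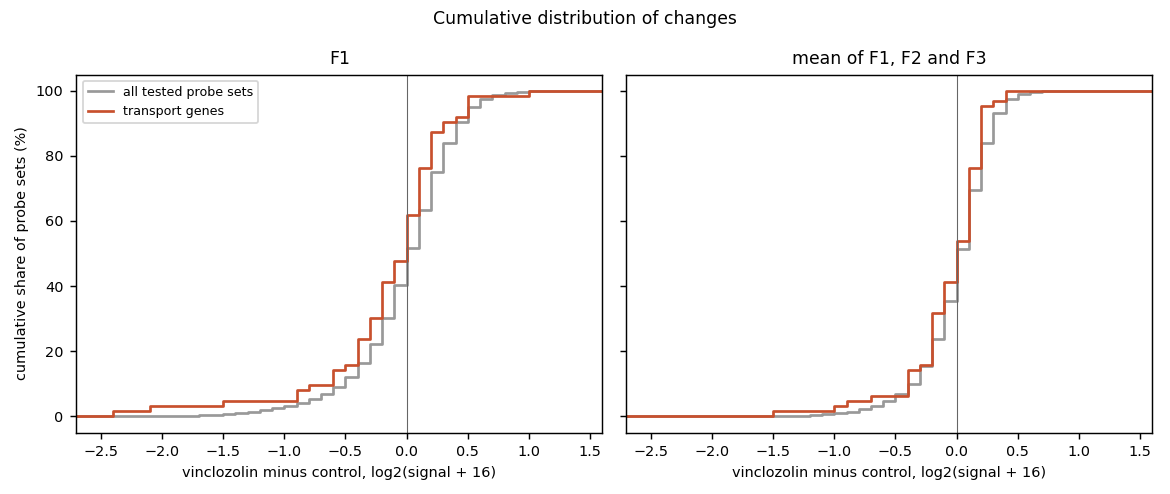
Cumulative share of probe sets (percent, vertical axis) by change, vinclozolin minus control on the log2(signal + 16) scale (horizontal axis), for the 63 transport probe sets and all 21729 tested, in F1 on the left and in the mean of the 3 generations on the right. The transport curve lies to the left of the other over the fallen range in F1, where the medians were -0.09 and -0.01, and the 2 curves lie closer in the mean, where they were -0.02 and -0.01.

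The F1 calls depended on single arrays. Of the 22 F1 calls, 8 held whichever of the 12 arrays was left out: Ipo5 1396742_at, Xpo7 1397747_at, both Kpnb1 probe sets, Xpo5 1385167_at, Nup58 1370711_a_at, Nup188 and Tnpo3 1389979_at. Fewer members were called in F1 without F1 control 1, F1 control 2 or F1 vinclozolin 2, and more without F1 vinclozolin 1. The number of calls over all probe sets moved the same way, so these moves were not particular to the members. Of the 10 F2 calls, only Ipo5 1396742_at, Kpnb1 1368573_at and Xpo7 1397747_at held whichever array was left out. Fewer were called in F2 without F2 control 1, F2 control 2 or F2 vinclozolin 2, among the members and over all probe sets alike. Of the 27 calls in the mean, 17 held without any single array. F1 and F2 use different control arrays, and 8 members were called in both, which is 36.4% of the F1 calls and 80% of the F2 calls, with the same direction in all 8. Over all probe sets 2095 were called in both, 41.7% of the F1 calls and 67.2% of the F2 calls. These 8 were the single called probe sets of Kpnb1, Nup153, Xpo5, Xpo1, Ipo5 and Xpo7 in F2 and both Tnpo3 probe sets.

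**Figure D2:**
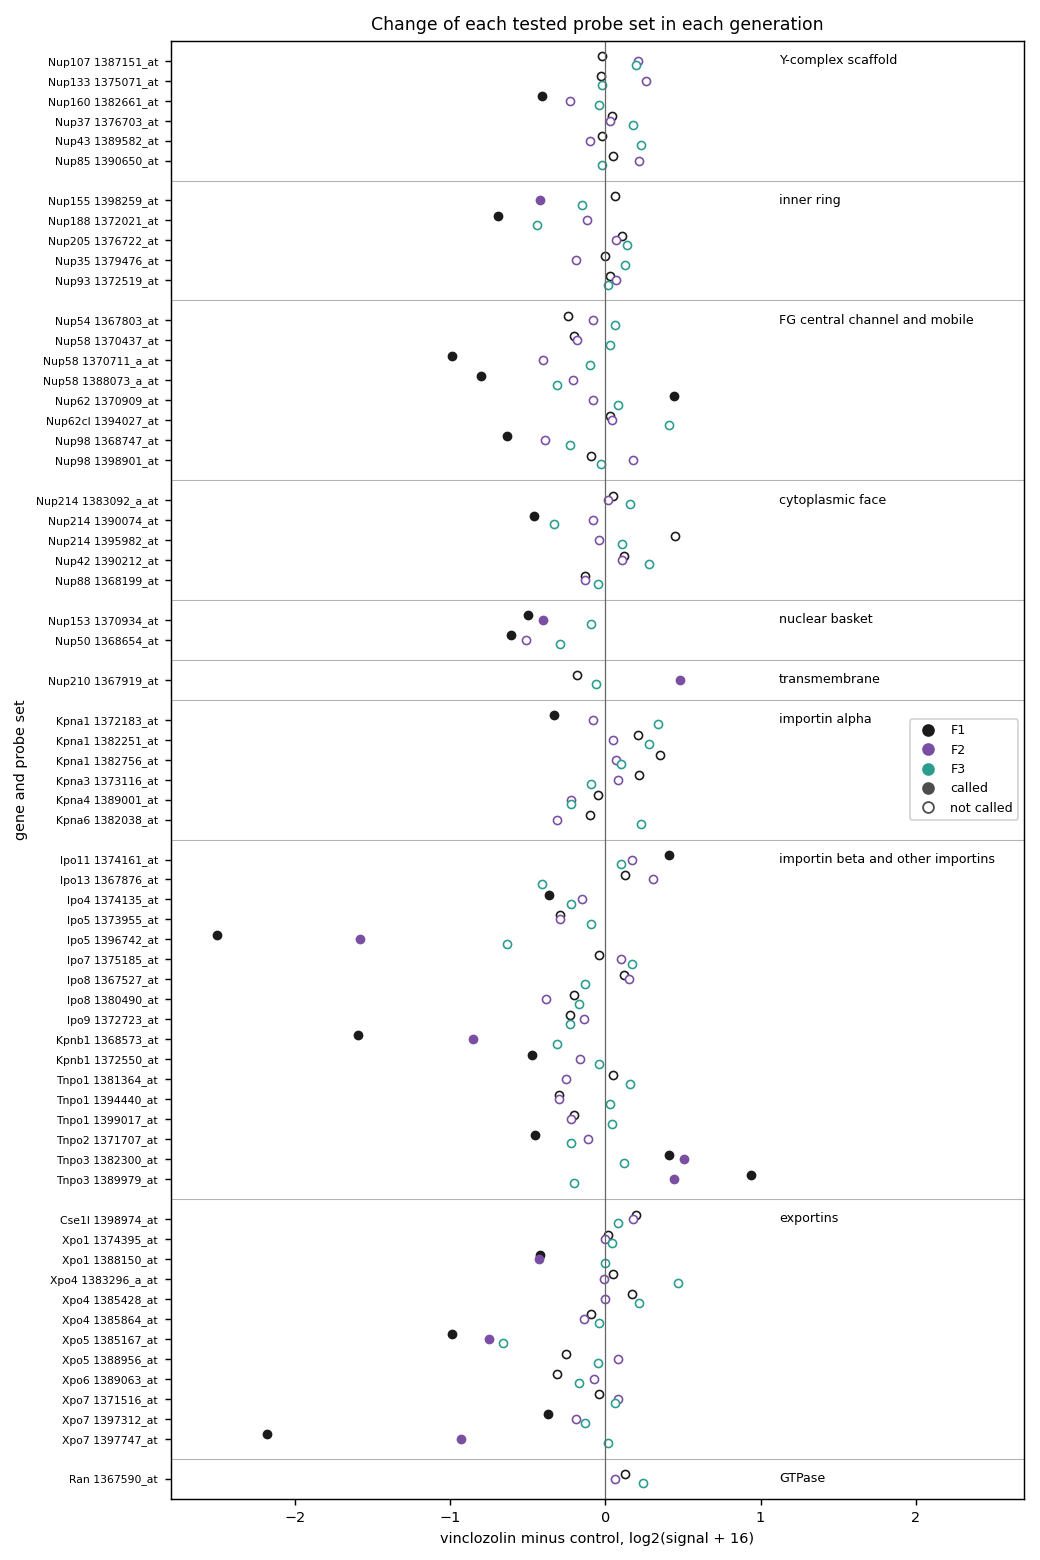
Change of each of the 63 tested probe sets, vinclozolin minus control on the log2(signal + 16) scale (horizontal axis), with the genes grouped by role (vertical axis), and 1 point for each of F1, F2 and F3, filled where called. On this scale, without median centring, the filled points lie mostly left of 0 and belong to F1 (22) or F2 (10), with none in F3, and Ipo5 1396742_at and Xpo7 1397747_at reach -2.50 and -2.18 in F1.

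Among the import receptors, 17 probe sets of 11 genes were tested, of which 8 fell (47.1%, against 19.2% of all) and 3 rose (17.6%, against 14.1%) in the mean contrast. Ipo5 encodes importin 5, a carrier of ribosomal proteins and histones. At its probe set 1396742_at the signals were 103.8 and 89.9 in F1 controls, 122.9 and 104 in F2 controls and 100.3 and 62.9 in F3 controls. In the vinclozolin lineage they were 7.6 and 0.8 in F1, 30.6 and 24 in F2 and 51.6 and 40.9 in F3. All 6 vinclozolin arrays lay below all 6 controls, and both F1 vinclozolin values were under 14.8, the mean signal below which probe sets were not tested. The change was -2.50 ± 0.21 in F1 (SE, 2 arrays a group; 5.66-fold on this scale, limma adjusted p = 3.77e-06), -1.58 ± 0.21 in F2 (adjusted p = 0.000239) and -0.63 ± 0.21 in F3 (adjusted p = 0.117). The offset of 16 shrinks changes of signals this low, so the fold depends on the offset, and no true fold was read from signals this dim. The other tested Ipo5 probe set, 1373955_at, ran from 733.9 to 839.8 on control arrays and from 544.7 to 745.6 on vinclozolin arrays, which overlap. It was not called in any generation and fell by 0.22 ± 0.06 in the mean (adjusted p = 0.0156), a call lost without F2 control 1, F2 vinclozolin 2 or F3 vinclozolin 2.

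Kpnb1 encodes importin beta 1, the main import receptor and the partner of the importin alpha adaptors. At 1368573_at the controls read 391.4 and 402.6 in F1, 373.9 and 383.1 in F2 and 372.6 and 318.9 in F3, and the vinclozolin arrays 142.1 and 103.4, 218.3 and 188.4, and 282.5 and 268.8. Every vinclozolin array was below every control, by most in F1. The change was -1.59 ± 0.13 in F1 (limma adjusted p = 3.39e-06), -0.85 ± 0.13 in F2 (adjusted p = 0.000669) and -0.31 ± 0.13 in F3 (adjusted p = 0.217). The other Kpnb1 probe set, 1372550_at, ran from 665.9 to 747.3 in controls and read 579.9 and 469.3 in F1 vinclozolin, 623.5 and 582.6 in F2 and 724 and 685.7 in F3. There the F3 arrays overlapped the controls, and the change was -0.47 ± 0.10 in F1 (adjusted p = 0.00351), -0.16 ± 0.10 in F2 (adjusted p = 0.301) and -0.04 ± 0.10 in F3 (adjusted p = 0.865).

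Tnpo3, transportin 3, carries serine- and arginine-rich splicing factors into the nucleus, and it rose where most of the other called receptors fell. At 1389979_at the controls read 305.2 and 307.8 in F1, 287.3 and 337.6 in F2 and 331.8 and 448 in F3, and the vinclozolin arrays 559.6 and 646, 471.6 and 391.6, and 322.2 and 345.4. The F1 and F2 pools lay above their own controls, and the F3 pools overlapped theirs. The change was 0.94 ± 0.14 in F1 (limma adjusted p = 0.000218), 0.44 ± 0.14 in F2 (adjusted p = 0.0403) and -0.20 ± 0.14 in F3 (adjusted p = 0.473). The F2 call was lost without 8 of the 12 arrays, namely all 4 F2 arrays, both F1 controls and both F3 vinclozolin pools. It was also lost with no filter on dim probe sets (0.44), under quantile normalization (0.42) and under cyclic loess (0.40). Its other probe set, 1382300_at, ran from 164.6 to 199 in controls and read 231.5 and 297.7 in F1 vinclozolin, 242.6 and 256.8 in F2 and 198.9 and 214.8 in F3. It rose by 0.41 ± 0.12 in F1 (adjusted p = 0.0204) and by 0.51 ± 0.12 in F2 (adjusted p = 0.0104), and the F3 value was 0.12 ± 0.12 (adjusted p = 0.647). The F1 call was lost without F1 control 1, F1 control 2 or F1 vinclozolin 2 (value then 0.24), and the F2 call without F2 control 1 or F2 vinclozolin 2.

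Ipo11, a receptor for ubiquitin-conjugating enzymes, rose in F1 by 0.41 ± 0.11 (limma adjusted p = 0.017), with signals of 345.4 to 392.4 in controls and 394.3 to 540.5 in the vinclozolin lineage, which did not overlap. Ipo4, an importin for histones and ribosomal proteins, fell in F1 by 0.36 ± 0.12 (adjusted p = 0.0364), with 587.5 to 606.9 in controls and 398.2 to 555.8 in the vinclozolin lineage. Tnpo2, a close relative of transportin 1, fell in F1 by 0.45 ± 0.12 (adjusted p = 0.0132). The Ipo11 and Tnpo2 calls in F1 were lost without F1 control 1, F1 control 2 or F1 vinclozolin 2, and the Ipo4 call without any of 9 arrays, the exceptions being F1 vinclozolin 1 and both F2 vinclozolin pools, and with no filter on dim probe sets. Without F1 vinclozolin 2 the F1 values were 0.21 for Ipo11, -0.28 for Tnpo2 and -0.14 for Ipo4, and without F1 vinclozolin 1 that of Ipo4 was -0.59. In the mean all 3 were called, at 0.23 ± 0.07 for Ipo11, -0.25 ± 0.07 for Ipo4 and -0.26 ± 0.07 for Tnpo2, and held without any single array. Under median centring the Ipo4 and Tnpo2 mean changes were -0.15 and -0.16 and were not called. Ipo8 1380490_at (-0.25 ± 0.08) and Ipo9 (-0.20 ± 0.06) fell in the mean alone, and each call was lost without some single arrays: for Ipo8 F1 control 1, F2 control 2, F3 control 1, F2 vinclozolin 2 or F3 vinclozolin 1, and for Ipo9 F1 control 2, F2 control 2, either F3 control, F2 vinclozolin 2 or F3 vinclozolin 2. The probe sets of Ipo7, Ipo13 and Tnpo1 were not called in any of these contrasts, with changes in the mean from -0.19 to 0.08.

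Of 12 exportin probe sets in 6 genes, 4 fell (33.3%, against 19.2% of all) and 1 rose (8.33%, against 14.1%) in the mean. Xpo7, exportin 7, is a broad-range transport receptor known for its role in the maturing erythroid nucleus. At 1397747_at the controls read 68.2 and 64.7 in F1, 68.2 and 53.3 in F2 and 46.3 and 48.2 in F3, and the vinclozolin arrays 2.1 and 2.4, 29 and 19.9, and 45.6 and 50.6. The F1 and F2 pools lay far below all controls, and the F3 pools overlapped their own. The change was -2.18 ± 0.17 in F1 (4.52-fold on this scale, limma adjusted p = 2.62e-06), -0.93 ± 0.17 in F2 (adjusted p = 0.00241) and 0.02 ± 0.17 in F3 (adjusted p = 0.971). Both F1 vinclozolin signals were under 14.8, so this fold depends on the offset as well. The probe set 1397312_at read 129.4 to 158.2 in controls and 101.9 to 128.3 in the vinclozolin lineage, without overlap, and fell in F1 by 0.37 ± 0.13 (adjusted p = 0.0478), a call lost without any one array other than F1 vinclozolin 1. It was also lost under quantile normalization (-0.30), median centring (-0.25) and cyclic loess (-0.33), with the replicate block, with array weights and with no filter on dim probe sets. Its call in the mean was lost under those 3 scalings, at -0.17, -0.13 and -0.19. The probe set 1371516_at read 427.8 to 452.6 in controls and 417.7 to 467.2 in the vinclozolin lineage, and its changes of -0.04, 0.08 and 0.06 in F1, F2 and F3 were not called.

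Xpo5, exportin 5, takes precursor microRNAs out of the nucleus. At 1385167_at the controls read 143.6 and 153.5 in F1, 157.3 and 151.6 in F2 and 142.5 and 147.4 in F3, and the vinclozolin arrays 89.5 and 49.4, 88.1 and 82.1, and 92.2 and 80.4. All 6 vinclozolin arrays were below all controls, at nearly the same level in each generation apart from the lower F1 pool. The change was -0.99 ± 0.17 in F1 (limma adjusted p = 0.000914), -0.75 ± 0.17 in F2 (adjusted p = 0.00945) and -0.66 ± 0.17 in F3, which missed the threshold at an adjusted p of 0.0529. Without F1 vinclozolin 2 the F1 value was -0.64, still called. The F2 call was lost without F2 control 1, F2 control 2 or F2 vinclozolin 2. The other Xpo5 probe set, 1388956_at, read 331.8 to 382.6 in controls and 243.9 to 427.8 in the vinclozolin lineage, and its changes of -0.25, 0.08 and -0.05 were not called.

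Xpo1, the receptor that exports proteins with leucine-rich signals, was measured by 2 probe sets. At 1388150_at the controls ran from 1439.3 to 1568.6, and the vinclozolin arrays read 1104.7 and 1124.7 in F1, 1232.4 and 1005.5 in F2 and 1582.5 and 1416.9 in F3. The F1 and F2 pools lay below all controls, and the F3 pools lay just outside the control range on either side. The change was -0.42 ± 0.10 in F1 (limma adjusted p = 0.00622), -0.43 ± 0.10 in F2 (adjusted p = 0.00914) and -0.00 ± 0.10 in F3 (adjusted p = 0.994). The F1 call was lost without F1 control 2, and the F2 call without F2 control 1 or F2 vinclozolin 2, where the value was -0.28. The probe set 1374395_at overlapped between lineages, at 1025.5 to 1300.4 and 1046.2 to 1321.1, and was not called. Cse1l, which returns importin alpha to the cytoplasm, rose in the mean by 0.15 ± 0.05 (adjusted p = 0.0403), a call lost without any of 9 arrays, namely every control, F2 vinclozolin 2 and both F3 vinclozolin pools. It was also lost under quantile normalization and cyclic loess, at 0.08 in both, and with no filter on dim probe sets. The probe sets of Xpo4 and Xpo6 were not called, and the nearest to a call was Xpo4 1383296_a_at in F3 with 0.47 ± 0.15 (adjusted p = 0.104).

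Ran itself read 3749.8 and 3958.1 in F1 controls, 4190.3 and 4023.9 in F2 controls and 3732.3 and 3806.9 in F3 controls. In the vinclozolin lineage it read 3822.9 and 4650.2 in F1, 4148.6 and 4434.2 in F2 and 4444.7 and 4451.7 in F3. Only in F3 did both vinclozolin pools exceed all 6 controls, and in F1 and F2 the lineages overlapped. The changes were 0.13 ± 0.09 in F1, 0.06 ± 0.09 in F2 and 0.24 ± 0.09 in F3, of which none was called (limma adjusted p = 0.31, 0.683 and 0.15). The mean of 0.14 ± 0.05 was called (adjusted p = 0.0379), but it was -0.02 under quantile normalization and under cyclic loess, and the call was lost with no filter on dim probe sets and without any of 9 arrays, namely every control, F2 vinclozolin 2 and both F3 vinclozolin pools.

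The importin alpha adaptors, which recognise classical nuclear localisation signals, were mostly not called: of 6 probe sets in 4 genes, 1 fell in F1 and 1 in the mean (16.7% each, against 13.7% and 19.2% of all). Kpna1 1372183_at read 621.6 and 623.4 in F1 controls, 662.7 and 681.9 in F2 controls and 639.3 and 683.3 in F3 controls. Its vinclozolin values were 499.1 and 486.7 in F1, 708.1 and 565.5 in F2 and 848.9 and 829.8 in F3. The F1 pools were below all controls and the F3 pools above all controls. The change was -0.33 ± 0.10 in F1 (limma adjusted p = 0.0269), -0.08 ± 0.10 in F2 (adjusted p = 0.621) and 0.34 ± 0.10 in F3 (adjusted p = 0.08), and the F1 call was lost without F1 control 1, F1 control 2 or F1 vinclozolin 2, under median centring (-0.21) and with array weights. The other Kpna1 probe sets, 1382251_at and 1382756_at, were not called, with F1 values of 0.21 ± 0.21 and 0.35 ± 0.13. Kpna4 fell in the mean by 0.17 ± 0.06 (adjusted p = 0.0319), a call lost without either F1 control, F2 control 2, either F3 control, F2 vinclozolin 2 or F3 vinclozolin 1. Kpna3 and Kpna6 were not called.

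In the nuclear basket, the filaments that face the nuclear interior, the 2 member probe sets both fell in F1 and in the mean, where 13.7% and 19.2% of all fell. Tpr, the main basket filament, lies outside the naming rule. In F1 its probe sets 1394814_at, 1382939_at and 1371695_at had changes of -1.42, 0.02 and 0.11. Nup50, a basket protein that helps release importin alpha from its cargo, read 67.9 and 64.5 in F1 controls, 65.7 and 70.6 in F2 controls and 64.4 and 66.5 in F3 controls, and 50.1 and 27.7, 40.1 and 46.1, and 50.6 and 50.6 in the vinclozolin lineage. No vinclozolin array reached the lowest control. The change was -0.61 ± 0.18 in F1 (limma adjusted p = 0.02), -0.51 ± 0.18 in F2 (adjusted p = 0.0653) and -0.29 ± 0.18 in F3 (adjusted p = 0.415), with a mean of -0.47 ± 0.10 (adjusted p = 0.00232). Without F1 vinclozolin 2 the F1 value was -0.31, and the F1 call was also lost without either F1 control. Nup153, which anchors the basket to the pore, read 1128.8 to 1263.7 in controls, 923.7 and 724.9 in F1 vinclozolin, 989.9 and 815.1 in F2 and 1171.3 and 1168.7 in F3. The F1 and F2 pools were below all controls, and the F3 pools lay among them. Nup153 fell in F1 by 0.50 ± 0.11 (adjusted p = 0.00469, lost without F1 control 1, and -0.33 without F1 vinclozolin 2) and in F2 by 0.40 ± 0.11 (adjusted p = 0.0265). The F2 call was lost without either F2 control, without F2 vinclozolin 2, where the value was -0.26, and under median centring (-0.29).

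**Figure D3:**
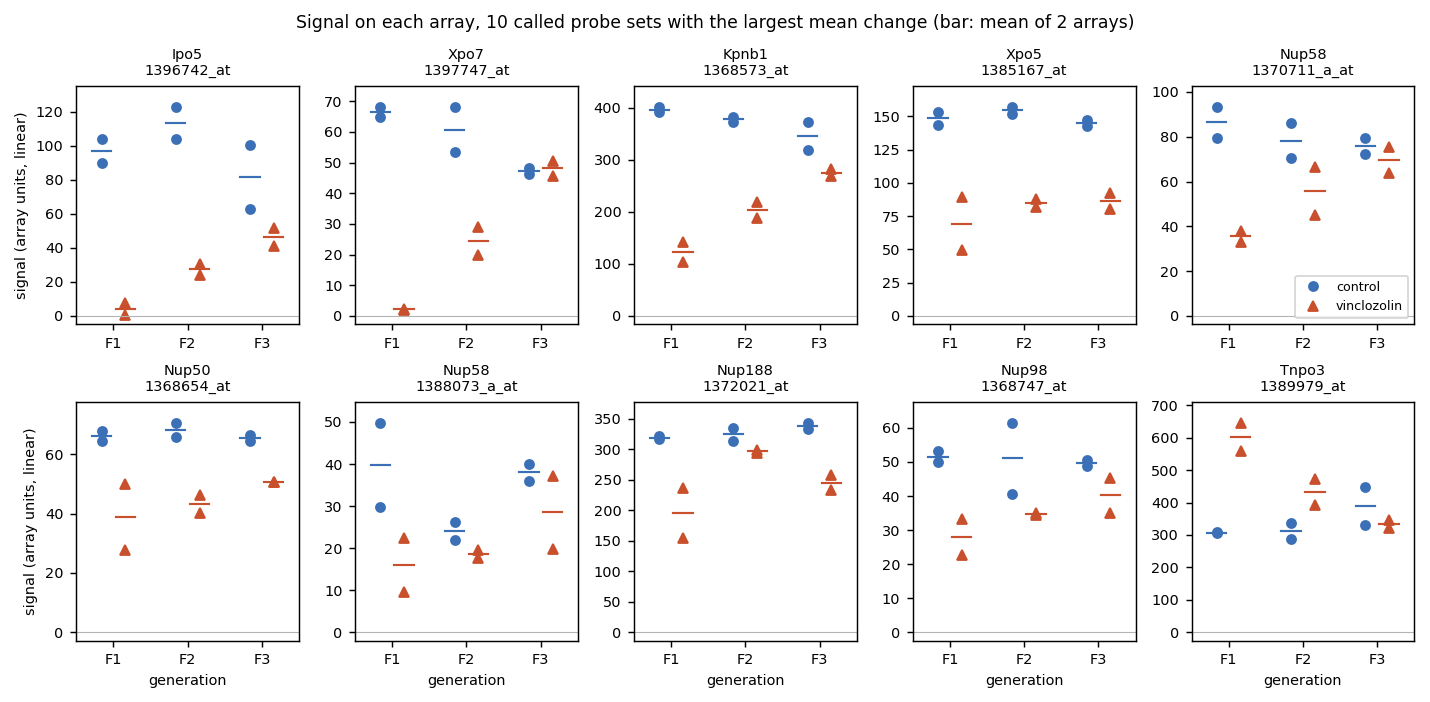
Signal (array units, linear, vertical axis) of the 10 called probe sets with the largest change in the mean contrast, on each of the 12 arrays by generation (horizontal axis), with circles for control, triangles for vinclozolin and a bar at the mean of the 2 arrays. Ipo5 1396742_at and Xpo7 1397747_at fall to 0.8 to 7.6 and to 2.1 to 2.4 in F1 vinclozolin, Xpo5 1385167_at lies between 49.4 and 92.2 in all 6 vinclozolin pools, and Tnpo3 1389979_at is the 1 probe set of the 10 that rose.

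Among the FG nucleoporins of the channel, 3 of 8 probe sets fell in F1 (37.5%, against 13.7% of all) and 1 rose (12.5%, against 9.41%). Nup58, a partner of Nup62 and Nup54 in the channel, read 79.4 and 93.4, 86 and 70.5, and 79.4 and 72.3 in the F1, F2 and F3 controls at 1370711_a_at, and 38.1 and 33.2, 66.5 and 45.2, and 75.4 and 64 in the vinclozolin lineage. The F1 and F2 pools lay below all controls, and 1 F3 pool lay among them. It fell in F1 by 0.99 ± 0.17 (limma adjusted p = 0.000708), and the F2 and F3 values were -0.40 ± 0.17 and -0.10 ± 0.17. At 1388073_a_at Nup58 read 29.7 and 49.8, 22 and 26.2, and 40 and 36 in controls and 22.5 and 9.6, 19.5 and 17.6, and 19.9 and 37.1 in the vinclozolin lineage, and the lineages overlapped. That probe set fell in F1 by 0.80 ± 0.24 (adjusted p = 0.0264), a call lost without F1 control 2, without F1 vinclozolin 2, where the value was -0.51, with array weights and with no filter on dim probe sets. Its mean of -0.44 ± 0.14 (adjusted p = 0.0246) lost its call without F1 control 2, F2 control 2, F3 control 1, F1 vinclozolin 2, F2 vinclozolin 2 or F3 vinclozolin 1.

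Nup98, an FG nucleoporin that also shuttles, read 53.2 and 50, 40.6 and 61.5, and 48.9 and 50.6 in the F1, F2 and F3 controls at 1368747_at, and 33.3 and 22.8, 34.3 and 34.9, and 45.4 and 35.1 in the vinclozolin lineage. All vinclozolin pools but 1 F3 pool were below the lowest control. It fell in F1 by 0.63 ± 0.18 (limma adjusted p = 0.0226), a call lost without either F1 control or F1 vinclozolin 2, under quantile normalization (-0.53) and median centring (-0.51), and with array weights. In the mean it fell by 0.42 ± 0.11 (adjusted p = 0.0073). Its other probe set, 1398901_at, was not called. Nup62, the central FG protein, rose in F1 by 0.44 ± 0.11 (adjusted p = 0.0101), with 586.9 and 472.4 in F1 controls and 782.9 and 659.1 in F1 vinclozolin. Its other controls reached 654.7, just under the lower F1 vinclozolin pool, and the call was lost without F1 control 2, where the value was 0.28. Nup54 and Nup62cl were not called.

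In the inner ring, the scaffold that joins the pore to the membrane, 5 genes were tested, of which 1 fell in F1 (20%, against 13.7% of all) and 2 in the mean (40%, against 19.2%). Nup188 read 316.5 and 321.6, 313.5 and 335.1, and 343.4 and 333 in the F1, F2 and F3 controls, and 237.3 and 155.1, 294.5 and 298.6, and 257.6 and 232.5 in the vinclozolin lineage. All 6 vinclozolin pools were below all controls, the F2 pools by least. Nup188 fell in F1 by 0.69 ± 0.14 (limma adjusted p = 0.00274), a value of -0.40 and still called without F1 vinclozolin 2, and the F2 and F3 values were -0.12 ± 0.14 and -0.44 ± 0.14 (adjusted p = 0.615 and 0.101). Nup155, another inner ring protein, fell in F2 by 0.42 ± 0.11 (adjusted p = 0.0178, lost without either F2 control or F2 vinclozolin 2 and, at -0.30, under median centring) and in the mean by 0.17 ± 0.06 (adjusted p = 0.0474). The mean call was lost without any one array other than F1 vinclozolin 2 and F2 vinclozolin 1, with the replicate number as a block, under median centring (-0.07) and with no filter on dim probe sets. Nup93, Nup205 and Nup35 were not called, with F1 values from -0.00 to 0.11.

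Of the 6 Y-complex genes, which form the outer scaffold rings, Nup160 fell in F1 by 0.41 ± 0.10 (limma adjusted p = 0.0103, lost without F1 control 2 and, at -0.29, under median centring), with 386.7 to 419.5 in controls and 302.6 and 308.7 in F1 vinclozolin. Nup107, Nup133, Nup37, Nup43 and Nup85 were not called, and their F1 values ran from -0.03 to 0.05. On the cytoplasmic face, Nup214 1390074_at fell in F1 by 0.46 ± 0.15 (adjusted p = 0.0382), a call lost without either F1 control, either F3 control, F1 vinclozolin 2 or either F3 vinclozolin pool. The Nup214 call was also lost under quantile normalization (-0.38), median centring (-0.34) and cyclic loess (-0.41), with array weights and with no filter on dim probe sets. Its call in the mean was lost under quantile normalization (-0.22) and median centring (-0.19). Nup88 and Nup42 were not called. Nup210, a membrane-spanning nucleoporin, read 238.3 and 243.5 in F2 controls and 342.7 on both F2 vinclozolin arrays, and rose in F2 by 0.48 ± 0.15 (adjusted p = 0.044). That call was lost without any one array other than the F1 vinclozolin pools, with an offset of 1, with no filter on dim probe sets and under cyclic loess (0.46). Nup210 values in F1 and F3 were -0.18 ± 0.15 and -0.06 ± 0.15.

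The change depended on generation for 5 of the 63 member probe sets by limma's F test, where 565 of all 21729 tested probe sets (2.6%) were called. An unadjusted p under 0.05 was found for 13 of the 63 members and for 3722 of all 21729, shares that lay near each other. The 5 called were Xpo7 1397747_at (adjusted p = 0.00129), Kpnb1 1368573_at (0.00569), Ipo5 1396742_at (0.0105), Tnpo3 1389979_at (0.0142) and Kpna1 1372183_at (0.0432). The difference of the F3 change minus the F1 change was 2.19 ± 0.24 for Xpo7, 1.87 ± 0.30 for Ipo5, 1.28 ± 0.18 for Kpnb1 and -1.14 ± 0.19 for Tnpo3. Fewer members were called without either F1 control, F3 control 2 or F3 vinclozolin 1, and more without either F1 vinclozolin pool. How the calls over all probe sets moved in these fits is not given here. Only the Xpo7 call held without every single array, and Kpnb1 lost its call without F3 control 2 alone. Ipo5 lost it without F1 control 1, F3 control 2 or F3 vinclozolin 1, Tnpo3 without those or F1 control 2, and Kpna1 without any control, or without either F3 vinclozolin pool. The Kpna1 call was also lost under median centring and with no filter on dim probe sets. The beta-actin ratio had the same order over the vinclozolin pools, lowest in F1 and nearest to the controls in F3, and its part in these differences was not tested. The covariate fit, in which 0 members were called, cannot decide it. Its slope rests only on ratio differences between the 2 arrays of a group.

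Probe sets of one gene often moved by different amounts. The difference between the changes of 2 probe sets of the same gene was tested with limma for all 6158 such pairs on the array, in the mean of the 3 generations. Among the members, 25 pairs in 13 genes could be compared, and 13 pairs (52%) in 9 genes differed at an adjusted p under 0.05, where 49.2% of all pairs did. The median absolute difference was 0.26 for the members and 0.29 for all pairs, shares and sizes that lay near each other. Both probe sets were called in 5 member pairs, with opposite directions in 0 of them, against 444 of 1295 over all genes.

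The widest splits were in Ipo5, Xpo7, Xpo5 and Kpnb1. For Ipo5 the change of 1373955_at exceeded that of 1396742_at by 1.35 ± 0.10 (95% interval 1.13 to 1.56, limma adjusted p = 3.51e-08), with 2.21 in F1, 1.29 in F2 and 0.54 in F3. In Xpo7 the change of 1371516_at exceeded that of 1397747_at by 1.06 ± 0.10 (0.85 to 1.27, adjusted p = 3.79e-07), with 2.13 in F1, 1.00 in F2 and 0.04 in F3. The 2 lower Xpo7 probe sets also differed, by 0.80 ± 0.12 (adjusted p = 4.1e-05). For Kpnb1 the change of 1368573_at lay below that of 1372550_at, with a difference of -0.69 ± 0.07 (-0.85 to -0.54, adjusted p = 1.17e-06). For Xpo5 the difference of 1385167_at minus 1388956_at was -0.72 ± 0.10 (-0.93 to -0.52, adjusted p = 1.06e-05), and here it was alike in F1 (-0.74), F2 (-0.83) and F3 (-0.60, adjusted p = 0.0498). These splits held without any single array, but their size depended on the offset added to the signal. With an offset of 1 and of 64 in place of 16, the Ipo5 split was 2.25 and 0.66, the split of Xpo7 1371516_at and 1397747_at 1.91 and 0.52, and that of the 2 lower Xpo7 probe sets 1.63 and 0.32. The Kpnb1 difference was -0.74 and -0.56 and the Xpo5 difference -0.84 and -0.51, and all of these were called at both offsets. The transcript positions of the probe sets were not used here, so whether the lower probe set of a pair lies farther from the 3′ end was not tested.

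Smaller splits were called in 5 more genes. In Nup98 the difference of 1368747_at minus 1398901_at was -0.44 ± 0.12 (limma adjusted p = 0.00543). In Nup58, 1370437_at, which was not itself called at -0.12, exceeded 1370711_a_at by 0.38 ± 0.09 (adjusted p = 0.00246). It exceeded 1388073_a_at by 0.32 ± 0.12 (adjusted p = 0.0391), a call lost without any of 7 arrays: F1 control 2, F2 control 2, either F3 control, F1 vinclozolin 2, F2 vinclozolin 1 or F3 vinclozolin 1. That call was also lost with an offset of 64 (0.10), under quantile normalization and cyclic loess (0.23 in both), with array weights and with no filter on dim probe sets. In Nup214, 1390074_at (-0.29 in the mean) lay below both other probe sets. The change of 1383092_a_at (0.08) exceeded it by 0.37 ± 0.10 (adjusted p = 0.00792), and the difference of 1390074_at minus 1395982_at (0.17) was -0.46 ± 0.13 (adjusted p = 0.00687). In Xpo1 the difference of 1374395_at minus 1388150_at was 0.30 ± 0.07 (adjusted p = 0.00196). The Ipo8 split (0.30 ± 0.11, adjusted p = 0.0283) was lost without F1 control 2, F2 control 2, F3 control 1, F1 vinclozolin 1, F2 vinclozolin 2 or F3 vinclozolin 1, and that of Xpo7 1371516_at and 1397312_at (0.26 ± 0.09, adjusted p = 0.0238) without F1 control 2, F2 control 1, F3 control 1 or F3 vinclozolin 2, and under quantile normalization (0.18) and cyclic loess (0.19). In Tnpo3 no difference was called in the mean (-0.05, 95% interval -0.24 to 0.15), although in F1 it was -0.52 (adjusted p = 0.0163). In Kpna1 the F1 change of 1372183_at (-0.33) lay below those of 1382756_at (0.35) and 1382251_at (0.21), with differences of -0.68 (adjusted p = 0.00213) and -0.53 (adjusted p = 0.0364). In the mean no pair was called in Kpna1, Tnpo1 or Xpo4.

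**Figure D4:**
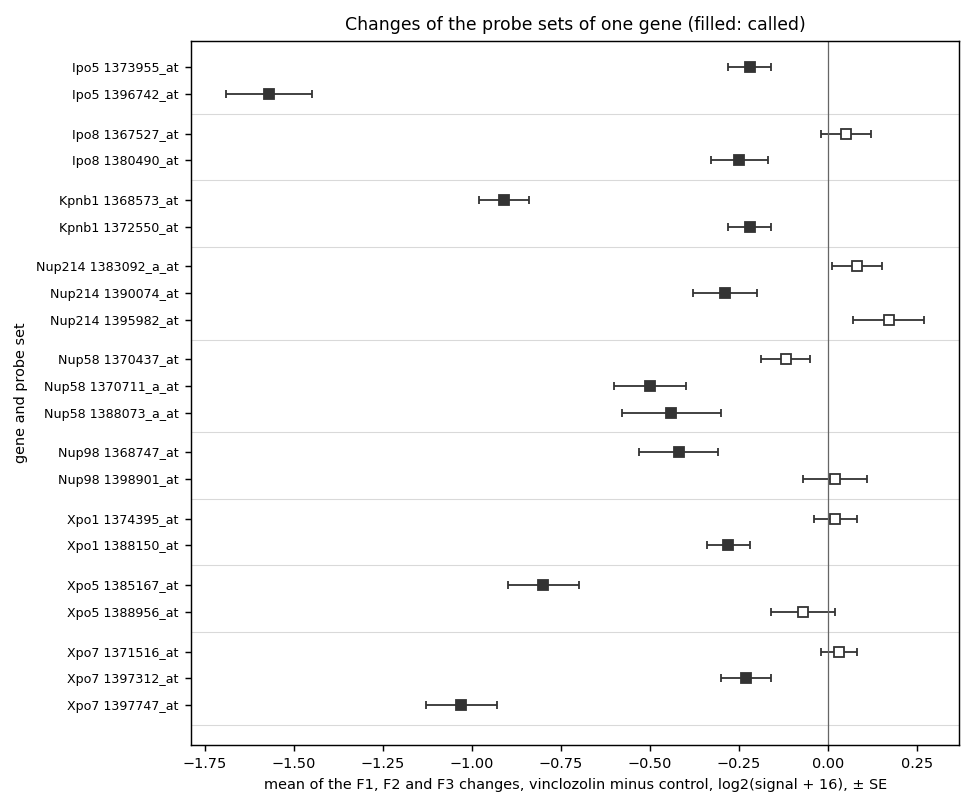
Mean of the F1, F2 and F3 changes, vinclozolin minus control on the log2(signal + 16) scale (horizontal axis), for each tested probe set of the 9 genes with a called pair (vertical axis), with bars of ± SE and filled squares where called. The lowest squares are Ipo5 1396742_at at -1.57, Xpo7 1397747_at at -1.03 and Kpnb1 1368573_at at -0.91, and another probe set of each of these genes lies at -0.22, 0.03 and -0.22.

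Partners outside the naming rule were read from a list of 30 further genes, with 48 tested probe sets: the Ran cycle, pore proteins with other names, and mRNA, tRNA and other export. Of these, 10 fell in F1 (20.8%, against 13.7% of all) and 6 rose (12.5%, against 9.41%). In F2, 10 fell (20.8%, against 9.65%) and 3 rose (6.25%, against 4.7%), and in F3, 3 fell (6.25%, against 2.06%) and 1 rose (2.08%, against 1.05%). In the mean 17 fell (35.4%, against 19.2%) and 8 rose (16.7%, against 14.1%), with a median of -0.09 against -0.01 for all tested probe sets. The largest falls in the mean were at probe sets of Thoc2 (-1.12 ± 0.10), of the complex that couples transcription to mRNA export, and Tpr (-1.03 ± 0.11), the main basket filament. Rae1 (-0.77 ± 0.08), an mRNA export factor at the pore, Xpot (-0.73 ± 0.07), the tRNA exportin, and Ranbp2 (-0.60 ± 0.07), the large nucleoporin of the cytoplasmic filaments, followed. Seh1l 1385634_at (-0.45 ± 0.11), of the Y complex, and Ddx19b 1380012_at (-0.42 ± 0.15), an export helicase, also fell, and Ranbp1 (0.48 ± 0.12), which helps hydrolyse Ran-bound GTP, rose. The Ddx19b probe set was dim, with group means from 6.65 to 21.2, and was called in the mean alone (limma adjusted p = 0.044). In F3, where no member was called, Thoc2 1385493_at (-0.83 ± 0.17, limma adjusted p = 0.0178), Tpr 1394814_at (-0.87 ± 0.19, adjusted p = 0.0232) and Xpot (-0.50 ± 0.12, adjusted p = 0.0429) fell and Rangrf, named after its value was seen (0.37 ± 0.09, adjusted p = 0.0332), rose. As in the members, other probe sets of Thoc2, Tpr, Rae1, Ranbp2, Seh1l and Ddx19b changed less in the mean. Thoc2 1396803_at (-0.43, limma adjusted p = 0.0113), Thoc2 1382140_at (-0.24, adjusted p = 0.0199), Tpr 1382939_at (-0.23, adjusted p = 0.0338) and Seh1l 1398988_at (-0.25, adjusted p = 0.0321) also fell. Thoc2 1386525_at (-0.08), Tpr 1371695_at (-0.04), Rae1 1392464_at (-0.10), Ranbp2 1383172_at (-0.13), Ddx19b 1381616_at (-0.01) and Ddx19b 1388843_at (-0.17) were not called.

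The 5 member probe sets too dim to be tested belonged to genes that other probe sets measured. Their signals ran from 1.1 to 15.4 for Ipo5 1391470_at, 3 to 17.1 for Kpna6 1381718_at, 5.7 to 16.2 for Nup37 1386364_at, 3.1 to 18.8 for Nup58 1371208_at and 4.6 to 21.1 for Nup62cl 1398093_at. No change was read from them.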

How the data were processed

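The deposited values are linear signal intensities per probe set from 12 Affymetrix rat arrays, hybridised by standard procedures per the labels' protocols. The 2% trimmed mean was 125.03 to 125.04 on every array, so the authors had scaled the arrays. Which summarisation software they used is not given in the sources used here. Detection calls were not used. The number of arrays, 2 per group, limits the precision. Gene symbols came from the platform annotation, in which 20826 probe sets have 1 symbol, 436 several and 9780 none.

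Values were transformed as log2(value + 16), and the 57 control probe sets and the dimmest 30% (mean signal below 14.8) were left out. With limma 3.58.1 (R 4.3.3, eBayes with trend) the 12 arrays were fitted by their 6 group means, and an adjusted p under 0.05 over all 21729 tested probe sets was called. Differences between probe sets of a gene were fitted alike over 6158 pairs. The scripts were tested on simulated data. The members, gene lists and tests were chosen with earlier results of these data known. Named in the text are genes with a called probe set or pair in any contrast, Ran, the array values of the 10 members with the largest mean change, and at most 8 other pathway genes by mean change. Alternatives covered offset, dim filter, scaling, replicate block, array weights, beta-actin ratio, single arrays left out and single generations.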

Additional observations from a re-analysis of the deposited data

Results flagged for a closer look

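Some member probe sets changed differently between the generations by limma's F test on the differences themselves, adjusted over all tested probe sets. For Xpo7 1397747_at the adjusted p was 0.00129, with changes of -2.18, -0.93 and 0.02 in F1, F2 and F3. For Kpnb1 1368573_at it was 0.00569, with -1.59, -0.85 and -0.31. For Ipo5 1396742_at it was 0.0105, with -2.50, -1.58 and -0.63. For Tnpo3 1389979_at it was 0.0142, with 0.94, 0.44 and -0.20. For Kpna1 1372183_at it was 0.0432, with -0.33, -0.08 and 0.34. The beta-actin 5′ to 3′ ratio, 0.149 to 0.192 in F1, 0.219 to 0.246 in F2 and 0.36 to 0.395 in F3 vinclozolin pools, moved with the generations too.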

How the results depend on the processing

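The tested signs and calls were limited by 2 pools a group and by dim signals. With the beta-actin ratio as a covariate the calls among members were 0 in F1, F2, F3, the mean, the generation test and the member pairs. Over all probe sets that fit called 247 in F3 (1.14%). For the members in F3, where the main fit called 0, the count was 1 with an offset of 64 (1.59%, against 3.33% of all). It was 1 with a stricter dim filter (1.72%, against 4.69%, 15521 probe sets tested) and 2 with the replicate number as a block (3.17%, against 3.28%). With array weights it was 8 and with the 4 F3 arrays alone 6, at the shares given above. The 4 F1 arrays alone called 8 members and 2294 of all 21729 probe sets in F1, and the 4 F2 arrays alone 11 and 3385 in F2. Single arrays left out gave 9 to 32 calls in F1, 3 to 14 in F2, 0 to 8 in F3, 18 to 33 in the mean, 1 to 20 in the generation test and 10 to 13 pairs. Replicate numbers did not pair the pools (correlations of deviations -0.09 to 0.07), and the block gave 22 member calls in F1, 10 in F2 and 26 in the mean. Over all probe sets the block gave 5009 calls in F1 and 3117 in F2, and 3026 higher and 4163 lower in the mean. The block ended the calls of Xpo7 1397312_at in F1 and Nup155 in the mean. All 59 named values lost their call under the covariate. None of the turned values listed for it below was called, and none is read as a reversal. Signs turned for Ran in the mean under quantile normalization (-0.02) and cyclic loess (-0.02), and under the covariate for the following; the cause was not tested. In F1 they were Nup50 0.79, Nup98 1368747_at 0.94, Nup153 0.59, Tnpo2 0.04, Nup188 0.96, Kpna1 1372183_at 0.17, Kpnb1 1372550_at 0.44, Ipo4 0.59, Ipo11 -0.68, Tnpo3 1382300_at -0.54, Xpo5 1385167_at 0.92 and Nup58 1388073_a_at 0.41. In F2 they were Kpnb1 1368573_at 0.10, Nup153 0.31, Tnpo3 1382300_at -0.12 and Xpo5 1385167_at 0.49. In the mean they were Ran -0.41, Nup50 0.39, Nup98 1368747_at 0.55, Nup58 1370711_a_at 0.01, Nup153 0.34, Tnpo2 0.04, Nup188 0.59, Kpnb1 1372550_at 0.33, Ipo9 0.35, Ipo5 1373955_at 0.45, Ipo4 0.34, Ipo11 -0.44, Tnpo3 1382300_at -0.24, Xpo5 1385167_at 0.37, Nup58 1388073_a_at 0.30 and Cse1l -0.37. Where an array was left out, the lone array of its group was taken to vary like the other groups.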
